A study of Mus musculus with 18 samples.

Results

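The mouse genes of the SLC25 family, most of which encode carrier proteins of the mitochondrial inner membrane, were followed through brown and white adipose tissue of mice with and without the long noncoding RNA gene Gm15551. Members were chosen by name alone, as the genes whose symbol is Slc25a followed by a number, and 47 of the 54347 rows of the gene count table met this rule. The samples were 18 libraries of polyadenylated RNA from 6 mice, each of which gave 3 depots: brown fat from between the shoulder blades (interscapular, iBAT), white fat from the groin (inguinal, iWAT) and white fat from beside the epididymis (eWAT). All mice were of the C57BL/6N strain and 12 weeks of age, and the series describes the wild type mice as litter mates without saying which mice shared a litter. The authors' methods give chow as the diet of the mice used for transcriptomes. Their results text, however, introduces the adipose comparison with animals on high-fat and control diets, and the sample titles name no diet. The 3 wild type (wt) mice carried the intact locus, and the 3 knockout (ko, ΔGm15551) mice carried a constitutive CRISPR/Cas9 deletion that removes exon 1 of Gm15551, so each tissue and genotype was represented by 3 libraries.

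SLC25 carriers are small proteins built from repeats of one fold, and most exchange a solute of the mitochondrial matrix for another of the cytosol. Through them pass the ADP and ATP of oxidative phosphorylation, the phosphate for ATP synthesis, acylcarnitines for fatty acid oxidation, citrate for fatty acid synthesis in the cytosol, and the cofactors that matrix enzymes need. Uncoupling protein 1, the protein by which brown fat makes heat, belongs to the same family but carries another symbol and was therefore no member, as is the case for Ucp2, Ucp3, Mtch1 and Mtch2.

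Sequencing depth was between 14997901 and 34389586 counts per library. Values are counts per 1000000 (CPM) after scaling by the trimmed mean of M-values (TMM), which sets the bulk of genes equal between libraries. Gm15551 had 40 to 316 counts in the wild type libraries and 0 to 4 in the knockout libraries. Ucp1 was between 3422 and 7994 CPM in iBAT, between 0.0989 and 55.3 CPM in iWAT and at most 1.34 CPM in eWAT. Of the 18 libraries, 4 stood apart by RNA of neighbouring tissues, and a result is given without them where leaving them out ends or adds a call or moves a called value by over 1.5 times. These were iWAT ko replicate 1, with a summed level of 13 skeletal muscle genes of 4806 CPM against 3.93 to 27.5 CPM elsewhere, iWAT wt replicate 3 and iWAT ko replicate 2, with 10 lymph node genes at 1721 and 761 CPM against 9.24 to 573 CPM elsewhere, and eWAT ko replicate 3, with 11 epididymis genes at 7299 CPM. The epididymis genes summed to 43.2 CPM in eWAT wt replicate 1 and to at most 2.82 CPM in the other 16 libraries, and 10 of the 11 had no more than 3 counts in any iBAT or iWAT library. In bulk tissue, fewer cells of a type and less RNA per cell cannot be told apart.

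Of the 47 members, 42 had enough counts to be tested. The remaining 5 were near or below detection in adipose tissue. Slc25a31, the ADP/ATP carrier of male germ cells, had 0 to 6 counts per library, Slc25a41 and Slc25a54, relatives of the ATP-Mg/phosphate carriers, had 0 to 3 and 0 to 2 counts, and Slc25a2, an ornithine carrier, had 1 to 16 counts. Slc25a21, the oxoadipate carrier, had at most 12 counts in 16 libraries but 48 counts in eWAT wt replicate 1 and 42 in eWAT ko replicate 3, the libraries with the highest epididymis sums. The part of those cells in the Slc25a21 counts was not tested.

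The first question was how the carriers differ between brown and white fat. Of the 42 tested members, 25 were higher and 8 lower in iBAT than in iWAT, at an adjusted p of 0.05 in edgeR's quasi-likelihood test with Benjamini-Hochberg adjustment over all 18728 genes tested. Over all tested genes, 24.0% were called higher and 30.3% lower in this comparison. Against eWAT, 24 members were higher and 8 lower in iBAT, where 24.4% of all tested genes were higher and 30.2% lower. The median log2 fold change of the members was 0.73 against iWAT and 0.68 against eWAT, while that of all tested genes was -0.14 and -0.17. Both comparisons use the same iBAT libraries and are therefore not independent of each other. Without the 4 libraries named above 44 members could be tested, of which 22 were higher and 7 lower than in iWAT, where 20.7% of all tested genes were higher and 24.6% lower. Against eWAT 26 were higher and 9 lower, where 25.7% and 31.4% of all genes were. The 26 include Slc25a2, which the filter on low counts removes when all 18 libraries are used (1.69 ± 0.61, adjusted p = 0.030), on 1 to 16 counts per library. Markers of immune cells differed in the same comparisons: all 8 macrophage genes were lower in iBAT, with a median of -2.78 against iWAT and -1.94 against eWAT, and all 10 lymph node genes were lower than in iWAT (median -5.31). Their part in the members' differences was not tested.

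**Figure D1:**
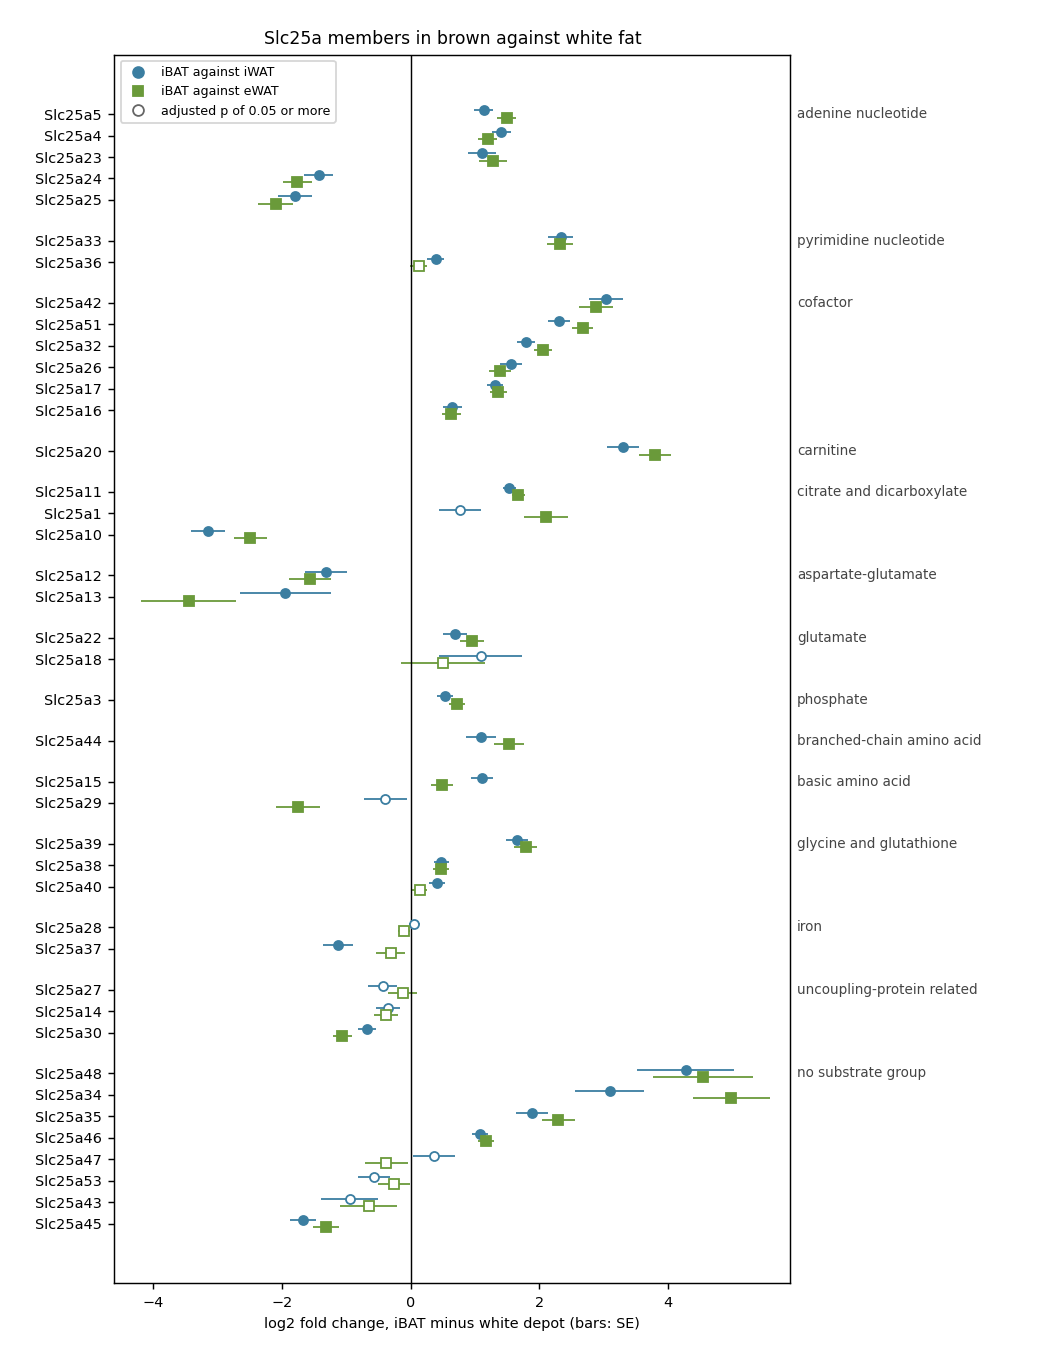
Log2 fold changes of tested members in iBAT against iWAT (circles) and iBAT against eWAT (squares), ordered by substrate group, with standard errors as bars and open symbols for an adjusted p of 0.05 or more. Slc25a48, Slc25a34, Slc25a20 and Slc25a42 lie farthest to the right, Slc25a10 and Slc25a13 farthest to the left, and every cofactor carrier drawn lies above 0 on this TMM scale, of which Slc25a16 falls below 0 with total counts alone.

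How the libraries are scaled matters for the smaller of these differences. The 6 iBAT libraries had TMM factors of 0.617 to 0.744 and the 12 white fat libraries of 1.06 to 1.44, so that with total counts as the only scaling the median of all genes moved to -0.95 against iWAT and -1.04 against eWAT. On that scale 16 members were higher and 18 lower in iBAT than in iWAT, and 19 were higher and 19 lower than in eWAT. Of all tested genes, 7.68% were higher and 68.4% lower on that scale against iWAT, and 8.43% and 70.3% against eWAT. Slc25a3, Slc25a16, Slc25a36, Slc25a38 and Slc25a40 turned from above 0 to below 0 in both comparisons, as did Slc25a22 against iWAT and Slc25a15 against eWAT. Slc25a15, Slc25a23 and Slc25a44 stayed above 0 against iWAT without passing the threshold, as did Slc25a22 against eWAT. Total counts also added calls of lower in iBAT, 6 against iWAT and 9 against eWAT, of members that did not pass with TMM. Slc25a14, Slc25a27, Slc25a28, Slc25a43 and Slc25a53 were added in both comparisons, Slc25a29 against iWAT, and Slc25a36, Slc25a37, Slc25a40 and Slc25a47 against eWAT. Directions below are relative to the bulk of genes, as set by TMM.

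Slc25a20, the carnitine-acylcarnitine translocase that brings activated fatty acids into the matrix, had a lowest, median and highest level of 584, 703 and 884 CPM in iBAT. In iWAT these values were 37.1, 79.1 and 97.0 CPM, and in eWAT 28.8, 55.0 and 65.1 CPM. Every iBAT library lay above every white fat library, and the log2 fold change was 3.30 ± 0.24 (SE) against iWAT (adjusted p = 1.5e-08) and 3.80 ± 0.25 against eWAT (adjusted p = 2.7e-09). Both white depots differed by 0.50 ± 0.23 (adjusted p = 0.17), and without the 4 libraries by 0.65 ± 0.16, higher in iWAT (adjusted p = 0.018). Of 6 partner genes of the carnitine system, 4 were higher and 2 lower in iBAT than in either depot. Cpt1b, the muscle and brown fat form of the carnitine palmitoyltransferase of the outer membrane, was higher by 6.13 ± 0.38 against iWAT, whereas Cpt1a, its liver form, was lower by -1.60 ± 0.19 and Cpt1c, its brain form, by -1.88 ± 0.18.

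The 250 bases before the RefSeq start site of 3 members are shown as examples of both directions, Slc25a20 and Slc25a34 being higher in brown fat than in either white depot and Slc25a10 lower. They are given 5′ to 3′ on the strand of the gene in build GRCm38.p6. Slc25a20 lies on the plus strand (chr9:108661886-108662135), Slc25a34 on the minus strand (chr4:141623835-141624084) and Slc25a10 on the plus strand (chr11:120491587-120491836). Capitals mark the letters TGACCTT, the reverse complement of the half-site AAGGTCA that oestrogen-related receptors and related nuclear receptors can bind.
Slc25a20: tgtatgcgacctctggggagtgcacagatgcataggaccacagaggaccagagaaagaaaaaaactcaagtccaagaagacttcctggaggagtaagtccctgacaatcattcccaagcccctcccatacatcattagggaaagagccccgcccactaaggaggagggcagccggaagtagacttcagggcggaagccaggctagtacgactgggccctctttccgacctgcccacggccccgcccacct
Slc25a34: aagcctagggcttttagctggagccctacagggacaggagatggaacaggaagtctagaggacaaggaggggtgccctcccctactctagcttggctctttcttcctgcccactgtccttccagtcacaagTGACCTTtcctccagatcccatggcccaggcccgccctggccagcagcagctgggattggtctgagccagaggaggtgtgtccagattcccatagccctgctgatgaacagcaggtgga
Slc25a10: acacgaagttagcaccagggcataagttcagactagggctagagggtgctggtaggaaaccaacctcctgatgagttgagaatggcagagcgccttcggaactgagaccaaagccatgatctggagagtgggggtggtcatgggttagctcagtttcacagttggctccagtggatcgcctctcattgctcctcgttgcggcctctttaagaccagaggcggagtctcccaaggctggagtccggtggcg

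RefSeq promoters of 300 bases (250 before and 50 after the start) were matched by symbol for 36 of the 47 members, 46 promoters in all. AAGGTCA occurred on either strand in 1 of the 46, that of Slc25a34 (2.17%), and in 4.72% of 32851 mouse promoters. The longer element TGACCTTGA, which contains the same letters on the opposite strand, was in 0 of the 46 and in 0.423% of all promoters. GCATGCGC, part of the site of nuclear respiratory factor 1, occurred in 2 of the 46 (4.35%), those of Slc25a31 and Slc25a54, and in 2.71% of all promoters. A match describes the sequence only, and the lack of one says only that these letters are not in this window.

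Cofactor carriers were higher in iBAT without exception on the TMM scale: all 7 passed the test in both comparisons, with a median log2 fold change of 1.79 against iWAT and 2.06 against eWAT. Apart from Slc25a42, they are named here after their values were seen. Slc25a42, which imports coenzyme A, had 229, 310 and 447 CPM (lowest, median, highest) in iBAT, 19.8, 39.9 and 57.5 CPM for iWAT and 34.2, 47.4 and 53.6 CPM for eWAT. Its log2 fold change was 3.03 ± 0.26 against iWAT (adjusted p = 7.6e-08) and 2.88 ± 0.26 against eWAT, and iBAT did not overlap either depot. Slc25a51, which imports NAD+, had 587, 716 and 905 CPM in iBAT against 82.6 to 180 CPM in iWAT and 102 to 127 CPM in eWAT, differences of 2.31 ± 0.16 and 2.67 ± 0.17 on the log2 scale. These levels left a wide gap between brown and white fat in both genes. Smaller differences were found for Slc25a32, a carrier of folate and FAD (1.79 ± 0.14 and 2.06 ± 0.14), Slc25a26, which imports S-adenosylmethionine (1.56 ± 0.17 and 1.39 ± 0.17), and Slc25a17, the cofactor carrier of peroxisomes (1.31 ± 0.13 and 1.36 ± 0.13). Slc25a16, linked to coenzyme A, had the smallest (0.65 ± 0.15 and 0.63 ± 0.15), which turned to -0.13 and -0.23 with total counts alone and of which the first was 0.43 ± 0.12 without the 4 libraries (adjusted p = 0.0074).

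**Figure D2:**
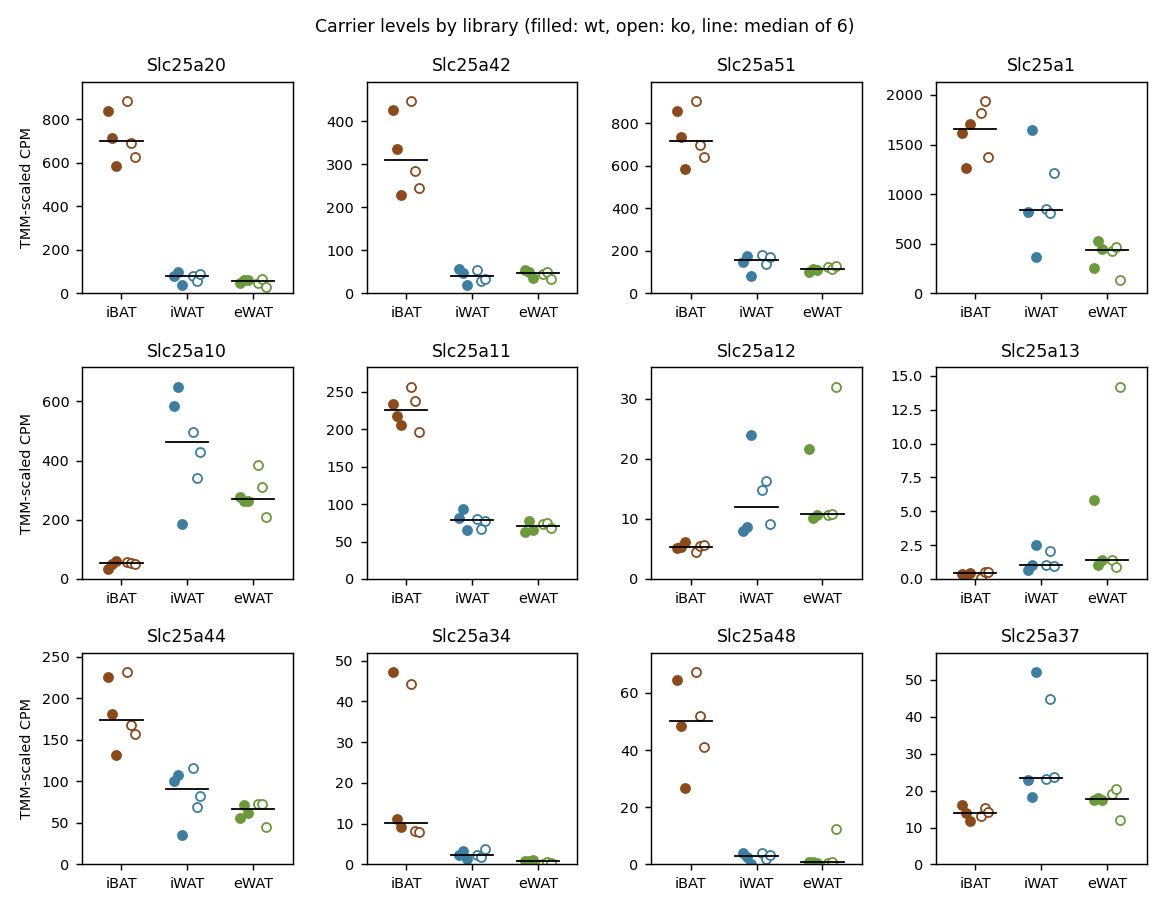
TMM-scaled CPM of 12 members in each library, by tissue, on linear axes that start at 0, with filled points for wt, open points for ko and a line at the median of 6. Slc25a20, Slc25a42 and Slc25a51 show no overlap between iBAT and white fat, Slc25a10 shows the opposite pattern, 2 iBAT libraries of Slc25a34 sit at 44.2 and 47.2 CPM above the other 4, and single eWAT or iWAT libraries stand out for Slc25a12, Slc25a13, Slc25a37 and Slc25a48.

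The adenine nucleotide carriers did not share a direction. Slc25a4 and Slc25a5 are the ADP/ATP translocases that export newly made ATP from the matrix, and Slc25a23, Slc25a24 and Slc25a25 are calcium-regulated carriers that exchange ATP-Mg for phosphate and so set the adenine nucleotide pool. Slc25a4 had 498, 548 and 590 CPM in iBAT, 141, 210 and 280 CPM for iWAT and 181, 245 and 269 CPM for eWAT, which was higher by 1.41 ± 0.15 and 1.20 ± 0.15. Slc25a5 had 501, 605 and 641 CPM in iBAT, 210, 258 and 363 CPM for iWAT and 151, 213 and 247 CPM for eWAT, higher by 1.13 ± 0.15 and 1.5 ± 0.15. Neither gene overlapped between iBAT and the white depots.

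Among the ATP-Mg/phosphate carriers, Slc25a23 was higher in iBAT, at 218, 241 and 277 CPM against 47.1 to 139 CPM in iWAT and 67.0 to 124 CPM in eWAT (1.11 ± 0.22 and 1.28 ± 0.22). Slc25a24 was lower, at 4.81, 5.51 and 6.66 CPM against 11.3 to 23.7 CPM and 10.3 to 24.2 CPM (-1.43 ± 0.22 and -1.76 ± 0.22). Slc25a25 was lower as well, at 6.08, 8.11 and 16.2 CPM against 17.2 to 45.4 CPM and 23.0 to 49.3 CPM (-1.80 ± 0.26 and -2.10 ± 0.27). In all 3 genes the iBAT range lay outside both white fat ranges. Because the scaling of a library largely cancels in a ratio of 2 of its genes, except for genes near the pseudocount, related members were also compared as log2 ratios with a pseudocount of 0.5 CPM, in 12 pairs and 3 tissue comparisons, by a two-sided exact permutation test over 6 against 6 libraries with adjustment over the 36 tests. Of the 12 ratios, 7 passed between iBAT and iWAT, 8 between iBAT and eWAT and 2 between the white depots. The ratio of Slc25a23 to Slc25a24 stood at 5.30 ± 0.18 (SD, n = 6) for iBAT against 2.80 ± 0.92 for iWAT and 2.36 ± 0.34 for eWAT, and iBAT overlapped neither depot (exact permutation p = 0.0022, the smallest this test can give, adjusted p = 0.0056 in both comparisons). That of Slc25a23 to Slc25a25 stood at 4.71 ± 0.55 for iBAT against 1.79 ± 0.44 for iWAT and 1.36 ± 0.24 for eWAT, again without overlap and with the same p-values. As the upper gene was higher and the lower gene lower in iBAT, each without overlap, these ratios had to separate. Their p-values therefore add nothing to the calls of the single genes, and the same holds for Slc25a10 to Slc25a11 below.

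The ratio of both ADP/ATP translocases, Slc25a4 to Slc25a5, had a mean of -0.08 ± 0.07 (SD, n = 6) for iBAT, -0.38 ± 0.29 for iWAT and 0.22 ± 0.19 for eWAT. It differed between iWAT and eWAT by -0.60 (exact permutation, adjusted p = 0.0097) and between iBAT and eWAT by -0.30 (exact permutation, adjusted p = 0.014), while iBAT and iWAT differed by 0.30 (exact permutation, adjusted p = 0.078). The groups overlapped in all 3 comparisons, and the iBAT against eWAT call was lost without wt replicate 1 or without wt replicate 2 (exact permutation, adjusted p = 0.050 in both cases). Only iWAT ko replicate 1, the library with skeletal muscle RNA, brought iWAT into the iBAT range, at 0.047 against -0.18 to 0.0047. After leaving out the 4 libraries all iWAT ratios lay below all iBAT ratios, and this comparison passed as well. When the same mice were paired across tissues by a sign-flip test, no p could go below 0.031 with 6 mice, and after adjustment none of the 36 ratios passed (smallest adjusted p = 0.066).

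**Figure D3:**
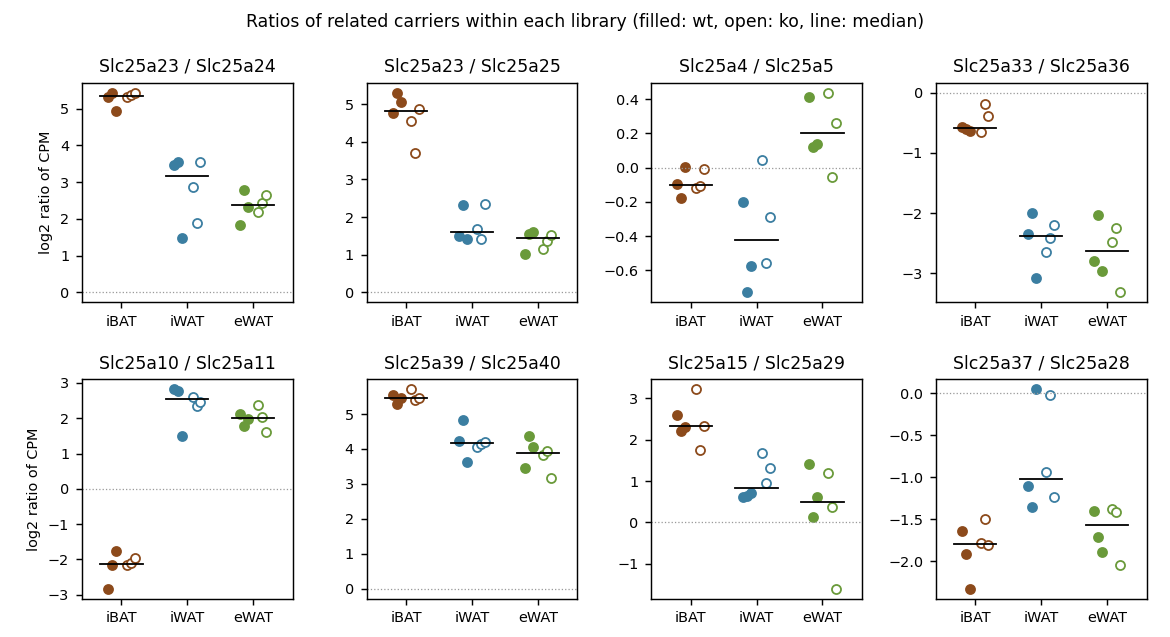
Log2 ratio of the CPM of related carriers within each library, by tissue, with filled points for wt, open points for ko and a line at the median of 6. The iBAT libraries lie apart from both white depots for Slc25a23/Slc25a24, Slc25a23/Slc25a25, Slc25a33/Slc25a36, Slc25a10/Slc25a11, Slc25a39/Slc25a40 and Slc25a15/Slc25a29, and overlap at least 1 depot for Slc25a4/Slc25a5 and Slc25a37/Slc25a28.

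Pyrimidine nucleotides enter mitochondria through Slc25a33 and Slc25a36, which supply the synthesis of mitochondrial DNA and RNA. Slc25a33 had 38.6, 48.2 and 53.6 CPM in iBAT, 5.08, 9.58 and 12.1 CPM for iWAT and 7.11, 8.85 and 12.8 CPM for eWAT, which was higher by 2.33 ± 0.20 and 2.32 ± 0.20. Slc25a36 ranged from 60.2 to 79.9 CPM in iBAT, from 46.9 to 54.5 CPM in iWAT and from 50.03 to 95.8 CPM in eWAT. It was higher by 0.39 ± 0.13 against iWAT (adjusted p = 0.020), a call lost without ko replicate 1 or wt replicate 3 and turned to -0.43 with total counts alone, and its difference of 0.12 ± 0.13 against eWAT did not pass. Without the 4 libraries, among them eWAT ko replicate 3 with 95.8 CPM, it passed against eWAT as well, at 0.29 ± 0.08 (adjusted p = 0.0089). The ratio of Slc25a33 to Slc25a36 was higher in iBAT by 1.94 against iWAT and by 2.13 against eWAT, with no overlap (exact permutation, adjusted p = 0.0056). Counts of Slc25a33 include 281 exonic bases that it shares with a gene on the opposite strand, Gm13068, and no source used here says whether counting took account of strand.

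The citrate and dicarboxylate carriers differed in direction. Slc25a1, which exports citrate as the source of cytosolic acetyl-CoA for fatty acid synthesis, had 1261, 1661 and 1938 CPM in iBAT, 368, 839 and 1645 CPM for iWAT and 138, 439 and 530 CPM for eWAT. It was higher in iBAT than in eWAT by 2.10 ± 0.34 (adjusted p = 5.6e-05), without overlap. Against iWAT the difference of 0.77 ± 0.33 missed the threshold (adjusted p = 0.056), and the ranges overlapped through iWAT wt replicate 2 at 1645 CPM. Without wt replicate 2, ko replicate 3 or the eWAT library of ko replicate 3 alone it passed, at 1.09, 0.88 and 0.76, whereas without the 4 libraries it was 0.37 ± 0.24 (adjusted p = 0.22).

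Slc25a10, the dicarboxylate carrier that exchanges malate or succinate for phosphate, had the lowest fold change of all tested members against iWAT. With all libraries it had the second lowest after Slc25a13 against eWAT. Once the 4 libraries were left out, its -2.58 ± 0.16 lay below the -2.43 ± 0.57 of Slc25a13. Slc25a10 had 32.5, 52.6 and 60.3 CPM in iBAT, 184, 463 and 649 CPM for iWAT and 210, 271 and 385 CPM for eWAT, lower by -3.15 ± 0.26 against iWAT (adjusted p = 5.6e-08) and -2.49 ± 0.26 against eWAT (adjusted p = 4e-07). Slc25a11, the oxoglutarate carrier that exchanges malate for oxoglutarate in the malate-aspartate shuttle, had the opposite direction, with 196, 226 and 257 CPM in iBAT, 65.3 to 93.9 CPM in iWAT and 62.7 to 77.0 CPM in eWAT (1.53 ± 0.10 and 1.67 ± 0.10). The log2 ratio of Slc25a10 to Slc25a11 had a mean of -2.16 ± 0.36 (SD, n = 6) for iBAT, 2.42 ± 0.49 for iWAT and 1.99 ± 0.27 for eWAT. The shift between iBAT and either depot was the widest of the 12 pairs. Of 8 citrate and malate partner genes, 6 were higher and 1 lower in iBAT than in iWAT. The higher ones included Me3 (5.25 ± 0.19), a mitochondrial malic enzyme, and Idh2 (1.95 ± 0.14), the mitochondrial NADP-dependent isocitrate dehydrogenase. The 1 lower gene was Me2 (mean of 9.84 CPM in iBAT against 18.5 CPM in iWAT).

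Both aspartate-glutamate carriers, which bring the electrons of cytosolic NADH to the matrix through the malate-aspartate shuttle, were lower in iBAT. Slc25a12 had 4.54, 5.40 and 6.14 CPM in iBAT, 8.05, 12.0 and 23.9 CPM for iWAT and 10.1, 10.8 and 32 CPM for eWAT, lower by -1.32 ± 0.33 (adjusted p = 0.0028) and -1.56 ± 0.33 (adjusted p = 0.00075), with no overlap. Its highest white fat values came from libraries with RNA of other tissues, eWAT ko replicate 3 at 32, iWAT wt replicate 3 at 23.9 and eWAT wt replicate 1 at 21.7 CPM, and without the 4 libraries it was lower by -0.66 ± 0.21 (adjusted p = 0.022) and -1.23 ± 0.19 (adjusted p = 6.3e-05). Since eWAT wt replicate 1 is not among the 4, it still enters the second value, beside eWAT libraries at 10.1 to 10.9 CPM. Slc25a13 was at the edge of detection in iBAT, with 1 to 8 counts per library, 0.0783 to 0.526 CPM. It had 0.682 to 2.51 CPM in iWAT and 0.849 to 1.42 CPM in 4 eWAT libraries, but 5.85 CPM in eWAT wt replicate 1 and 14.2 CPM in eWAT ko replicate 3.

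Against eWAT the Slc25a13 difference was -3.45 ± 0.73 with all libraries (adjusted p = 0.00078) and -2.44 ± 0.58 without eWAT ko replicate 3 (adjusted p = 0.0021). Against iWAT it was -1.94 ± 0.71 (adjusted p = 0.029), a call lost without the 4 libraries (-1.25 ± 0.62, adjusted p = 0.12) and also without ko replicate 1, ko replicate 2, wt replicate 2 or wt replicate 3, or without the iWAT library of ko replicate 2 or wt replicate 3 alone. The part of epididymal and lymph node RNA in the levels of both carriers was not tested. Of 4 enzymes of the same shuttle, 3 were higher in iBAT than in iWAT and none lower, with Mdh2, the mitochondrial malate dehydrogenase, at 2.15 ± 0.22, Mdh1, its cytosolic counterpart, at 1.25 ± 0.19, and Got1, the cytosolic aspartate aminotransferase, at 1.69 ± 0.29.

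Glutamate carriers were measured as Slc25a22 and Slc25a18. Slc25a22 had 156 to 196 CPM in iBAT, 61.1 to 158 CPM in iWAT and 70.7 to 114 CPM in eWAT, higher by 0.69 ± 0.18 and 0.95 ± 0.19, both calls lost with total counts alone (-0.09 and 0.08, adjusted p = 0.61 and 0.64). The first was 0.39 without the 4 libraries (adjusted p = 0.065). Slc25a18 had 2 to 38 counts per library and passed in neither comparison, with 1.09 ± 0.64 and 0.50 ± 0.65. It passed only without wt replicate 1 (1.23 and 1.64) or, against eWAT, without the eWAT library of that mouse (1.43).

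Slc25a3, the phosphate carrier that supplies ATP synthase, had 515, 573 and 624 CPM in iBAT, 313, 406 and 479 CPM for iWAT and 257, 365 and 397 CPM for eWAT. The iBAT libraries lay above all others, but the difference was among the smaller ones, at 0.54 ± 0.12 (adjusted p = 0.0015) and 0.73 ± 0.12 (adjusted p = 0.0001), and it turned to -0.26 and -0.13 with total counts alone. Slc25a44, which carries branched-chain amino acids into mitochondria, had 132, 174 and 232 CPM in iBAT, 36.0, 91.4 and 117 CPM for iWAT and 45.6, 66.7 and 72.6 CPM for eWAT. It was higher by 1.10 ± 0.23 (adjusted p = 0.00075) and 1.53 ± 0.23 (adjusted p = 3.4e-05), without overlap. Of 8 genes of branched-chain amino acid breakdown, 6 were higher and 2 lower in iBAT than in iWAT. The higher ones included Dld (2.38 ± 0.22) and Bckdha (2.19 ± 0.22), subunits of the branched-chain keto acid dehydrogenase complex, and Bckdk (1.24 ± 0.12), the kinase that inhibits it. The 2 lower ones were Bcat1 (mean of 0.845 CPM in iBAT against 4.78 CPM in iWAT) and Bcat2 (176 against 313 CPM).

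Among the basic amino acid carriers, Slc25a15, the ornithine carrier of the urea cycle, was higher in iBAT, at 19.97 to 30.3 CPM against 9.86 to 12.9 CPM in iWAT (1.11 ± 0.17) and 10.2 to 28.0 CPM in eWAT (0.50 ± 0.17, adjusted p = 0.022). The second call was lost without ko replicate 1, ko replicate 3 or wt replicate 2, and turned to -0.38 with total counts alone. Slc25a29, a carrier of arginine and lysine, was lower in iBAT than in eWAT, at 2.82 to 6.54 CPM against 7.08 to 31.9 CPM (-1.75 ± 0.34, and -1.34 ± 0.26 without eWAT ko replicate 3), and did not pass against iWAT (-0.39 ± 0.34). The ratio of Slc25a15 to Slc25a29 was higher in iBAT by 1.41 and 2.04 without overlap (exact permutation, adjusted p = 0.0056).

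Of the glycine and glutathione carriers, Slc25a39, which imports glutathione, had 458, 498 and 556 CPM in iBAT, 95.3 to 217 CPM in iWAT and 108 to 182 CPM in eWAT (1.65 ± 0.18 and 1.79 ± 0.18). Its close relative Slc25a40 stayed between 6.72 and 11.8 CPM in all 18 libraries, with 0.41 ± 0.12 against iWAT (adjusted p = 0.0095, lost without the 4 libraries and without ko replicate 2) and 0.14 ± 0.12 against eWAT, both below 0 with total counts alone. The ratio of Slc25a39 to Slc25a40 stood at 5.48 ± 0.14 (SD, n = 6) for iBAT against 4.18 ± 0.39 for iWAT and 3.81 ± 0.43 for eWAT, again without overlap. Slc25a38, which carries glycine for haem synthesis, differed by 0.48 ± 0.12 and 0.47 ± 0.12, and both turned negative with total counts alone (-0.33 and -0.39). Without the 4 libraries the first was 0.27 ± 0.11 (adjusted p = 0.063).

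Slc25a28 and Slc25a37, the mitoferrins that import iron, differed from each other. Slc25a28 ranged from 44.3 to 66.5 CPM over all 18 libraries, with 0.06 ± 0.09 and -0.11 ± 0.09, neither past the threshold on the TMM scale (-0.75 and -0.97 with total counts alone, both called lower). Slc25a37 had 11.6 to 16.1 CPM in iBAT and 12.1 to 20.3 CPM in eWAT. In iWAT it had 18.4 to 23.7 CPM in 4 libraries but 52.0 CPM in wt replicate 3 and 44.7 CPM in ko replicate 2, the libraries with the highest lymph node sums. It was lower in iBAT than in iWAT by -1.13 ± 0.23 with all libraries and by -0.64 ± 0.10 without the 4 (adjusted p = 0.00055 and 0.0002). Against eWAT it was -0.31 ± 0.23 (adjusted p = 0.26) with all libraries and passed without the 4, at -0.41 ± 0.09 (adjusted p = 0.0016). The ratio of Slc25a37 to Slc25a28 was likewise lower in iBAT than in iWAT by -1.06, and higher in iWAT than in eWAT by 0.87 (exact permutation, adjusted p = 0.0056 for both). Without the 4 libraries these were -0.60 (exact permutation, adjusted p = 0.027) and 0.33 (exact permutation, adjusted p = 0.13). The part of lymphoid RNA was not tested.

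The relatives of the uncoupling proteins were low throughout. Slc25a30 was lower in iBAT, at 10.6 to 14.7 CPM against 13.8 to 26.4 CPM and 22.7 to 35.4 CPM (-0.68 ± 0.14 and -1.06 ± 0.14), while Slc25a14 (1.81 to 3.83 CPM) and Slc25a27 (2.43 to 7.13 CPM) passed in neither comparison on the TMM scale. With total counts alone both were called lower, Slc25a14 at -1.16 and -1.27 and Slc25a27 at -1.23 and -0.998. The ratio of Slc25a14 to Slc25a30 was higher in iBAT than in eWAT by 0.70 (exact permutation, adjusted p = 0.0097), with overlapping ranges. Of the 5 family members under other symbols, 4 were higher and 1 lower in iBAT in both comparisons. Mtch2, an insertase of the outer membrane, was higher by 1.72 ± 0.19 and 1.99 ± 0.20, and Mtch1, its relative, by 1.29 ± 0.22 and 0.91 ± 0.22.

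Of the members, 8 were placed in no substrate group, and these held the widest differences among the tested Slc25a members, which do not include Ucp1. Slc25a48 had 26.9, 50 and 67.2 CPM in iBAT and 0.231, 2.89 and 4.03 CPM in iWAT. In eWAT it had 0.395 to 1.02 CPM in 5 libraries and 12.3 CPM in ko replicate 3. The log2 fold change was 4.27 ± 0.75 against iWAT and 4.54 ± 0.78 against eWAT, and 6.01 ± 0.54 against eWAT without that library. Slc25a34 had 7.98, 10.2 and 47.2 CPM in iBAT, 1.29, 2.29 and 3.78 CPM for iWAT and 0.172, 0.760 and 1.14 CPM for eWAT, so that all 3 tissues were free of overlap (3.09 ± 0.53 and 4.98 ± 0.59). Slc25a35, named after its values were seen, had 173 to 248 CPM in iBAT against 22 to 85.9 CPM and 32.7 to 56.5 CPM (1.88 ± 0.25 and 2.29 ± 0.25), with 1151 of its exonic bases shared with Rangrf on the opposite strand. Slc25a46, a protein of the outer membrane with a role in mitochondrial fusion and fission, was also named after its values were seen and differed by 1.08 ± 0.12 and 1.17 ± 0.12. Slc25a45 was lower in iBAT, at 3.90 to 6.01 CPM against 10.6 to 23.7 CPM and 8.76 to 13.8 CPM (-1.68 ± 0.20 and -1.31 ± 0.20). Slc25a43, Slc25a47 and Slc25a53, at or below 13.2 CPM everywhere, passed in neither comparison on the TMM scale.

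For context, 14 genes of mitochondrial protein import and structure were all higher in iBAT, with a median of 1.57 against iWAT and 1.53 against eWAT, Timm44 (1.93 ± 0.11), Tomm22 (1.27 ± 0.08) and Tomm40 (1.55 ± 0.11) having the smallest p-values. Of 14 inner membrane transporters of other families, 9 were higher than in iWAT, among them Letm1 (2.51 ± 0.19), Abcb8 (1.97 ± 0.16) and Slc30a9 (1.33 ± 0.11). The 3 lower ones were Sfxn2 (mean of 12.5 CPM in iBAT against 24.2 CPM in iWAT), Sfxn3 (8.08 against 24.1 CPM) and Slc8b1 (33.0 against 71.2 CPM). Of 8 tested partners of the adenine nucleotide carriers, 5 were higher and none lower than in iWAT, with Ppif, the cyclophilin of the permeability transition pore, at 2.53 ± 0.16 and the outer membrane channels Vdac1 and Vdac2 at 1.33 ± 0.14 and 1.41 ± 0.10. Relative to eWAT 5 were higher and 1 lower, Ckmt1 at -3.42, with at most 0.157 CPM in iBAT and 1.83 CPM in eWAT.

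Levels of different genes were ranked per length, as CPM per kilobase of the median annotated protein-coding transcript. Slc25a1 led in every tissue, at 1375 ± 220 (SD, n = 6) CPM per kb in iBAT, 809 ± 367 in iWAT and 321 ± 126 in eWAT. In iBAT the members next below it included Slc25a51 at 734 ± 123 and Slc25a39 at 683 ± 56.6, whose spreads overlap. In both white depots it was followed by Slc25a3, at 265 ± 42.8 in iWAT and 232 ± 34.7 in eWAT. The order depends on the transcript taken as length, since Slc25a22, Slc25a23, Slc25a39 and Slc25a51 have several shorter transcripts. Per kilobase of the longest transcript, Slc25a1 (972) was followed in iBAT by Slc25a5 (469), Slc25a20 (406) and Slc25a3 (353).

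Summed over all 47 members, the family took 7201 to 9218 CPM in iBAT, 2209 to 5141 CPM in iWAT and 2157 to 3183 CPM in eWAT. As shares of the members' summed CPM per kb, cofactor carriers made up 26.3% ± 1.91 (SD, n = 6) in iBAT, 12.7% ± 1.21 in iWAT and 14.2% ± 1.55 in eWAT. The carnitine carrier alone made up 6.11% ± 0.517, 1.41% ± 0.124 and 1.37% ± 0.222. The phosphate carrier made up 5.82% ± 0.361, 9.55% ± 1.95 and 11.1% ± 0.424. By the longest transcript the cofactor share was 15.9%, 7.49% and 9.08%, lower in each tissue and highest in iBAT as before. Shares sum to the whole, so that a rise of 1 group lowers the rest.

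**Figure D4:**
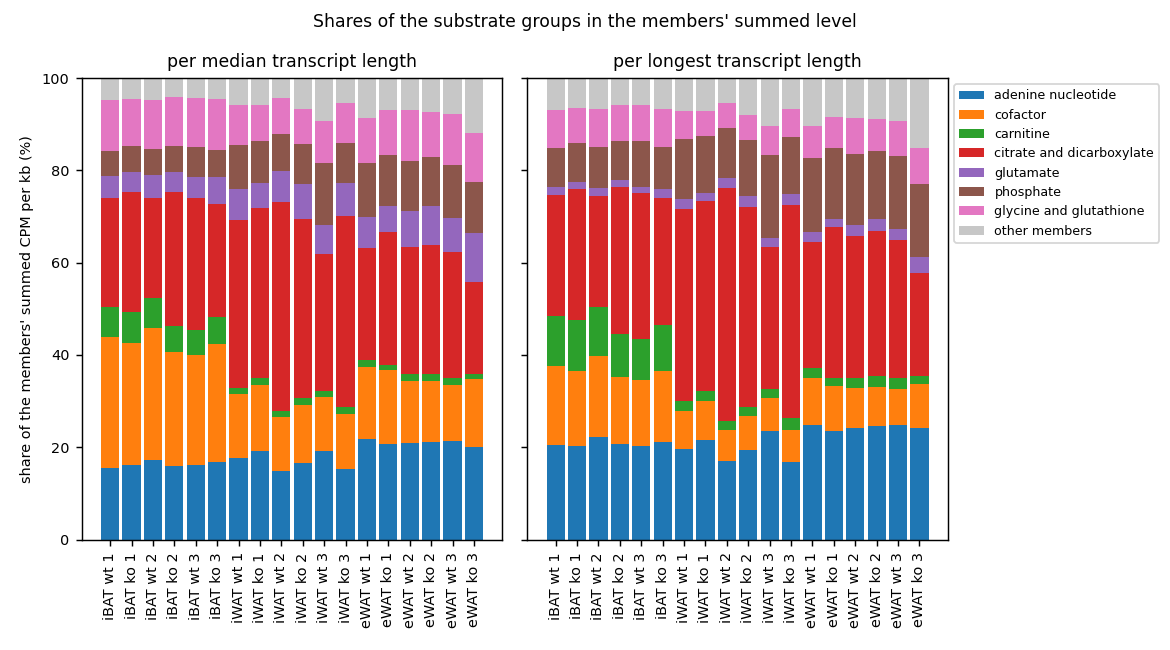
Share of each substrate group in the members' summed CPM per kb, in percent, for each of the 18 libraries, with the median (left) or the longest (right) protein-coding transcript as the length of a gene. Cofactor (orange) and carnitine (green) carriers take a wider band in the 6 iBAT libraries than in the 12 white fat libraries under both lengths, while the height of the cofactor band changes with the length used.

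Between the white depots few members differed. In iWAT against eWAT, 3 members were higher and 2 lower, where 5.70% of all tested genes were higher and 4.50% lower, and 13 of the 42 (31.0%) had an unadjusted p under 0.05, against 25.5% of all tested genes. Higher in iWAT were Slc25a34 (1.89 ± 0.54, adjusted p = 0.036), Slc25a1 (1.34 ± 0.33, adjusted p = 0.018) and Slc25a37 (0.82 ± 0.23, adjusted p = 0.031), and lower were Slc25a29 (-1.36 ± 0.34, adjusted p = 0.018) and Slc25a15 (-0.62 ± 0.17, adjusted p = 0.031). These calls were not stable. Leaving out 1 mouse gave 0 to 5 calls, with 0 without ko replicate 2, 1 without wt replicate 1 or wt replicate 2 and 2 without ko replicate 1 or ko replicate 3, and the 12 libraries of both depots alone gave 1. Leaving out single libraries gave 2 without eWAT wt replicate 1 or iWAT ko replicate 2 and 7 without iWAT wt replicate 3.

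Without the 4 libraries that stood apart, 10 of 44 members were called between the white depots, 7 higher and 3 lower, where 5.70% of all genes were higher and 4.55% lower, and 2 of these, Slc25a1 (1.54 ± 0.23) and Slc25a15 (-0.72 ± 0.18), were among the 5 called with all libraries. The other 8 are named for having been called here, after their values were seen. Higher in iWAT were Slc25a48 (2.11), Slc25a10 (0.91), Slc25a35 (0.86), Slc25a20 (0.65), Slc25a22 (0.56) and Slc25a51 (0.55), and lower were Slc25a24 (-0.89) and Slc25a30 (-0.57). The Slc25a37 difference fell to 0.23 ± 0.11 (adjusted p = 0.21) and that of Slc25a29 was -0.85 ± 0.30 (adjusted p = 0.094). Slc25a34 differed by 2.09 ± 0.71 and no longer passed (adjusted p = 0.079).

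Libraries of the same tissue also differed among themselves. Slc25a34 had 47.2 CPM in iBAT wt replicate 1 and 44.2 CPM in iBAT ko replicate 1, but 7.98 to 11.1 CPM in the other 4 iBAT libraries. This split followed the replicate number and not the genotype. Both replicate 1 libraries lay above the other 4 iBAT libraries in 14 of the 42 tested members, and in 15.8% of all tested genes. Among these were Slc25a4, Slc25a5, Slc25a20, Slc25a42, Slc25a44, Slc25a48 and Slc25a51, chosen here after their values were seen. They lay below the other 4 in 4 members (Slc25a12, Slc25a18, Slc25a26 and Slc25a27), and in 15.4% of all genes. Ucp1 was likewise highest in these libraries, at 6665 and 7994 CPM against 3422 to 5660 CPM. By their labels, same-numbered wild type and knockout mice have neighbouring identifiers, but what they share is not stated, and the part of a litter, day or housing was not tested.

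The second question was whether the deletion of Gm15551 changed any carrier. No member was called across tissues, while 0.00534% of all tested genes were, which was Gm15551 itself. No member had an unadjusted p under 0.05 there in edgeR's fit, against 2.19% of all tested genes. Within tissues no member was called in iBAT or iWAT, where 0% of all genes were called, or in eWAT, where 0.00534% were, again Gm15551 alone. An unadjusted p under 0.05 was found for 1 member in iBAT, 0 in iWAT and 2 in eWAT, by DESeq2 as by edgeR. In edgeR's fit 1.27%, 2.22% and 4.35% of all tested genes had such a p in these tissues, so that the members' counts lay near the background. DESeq2 called no member in any of these comparisons. Across tissues the log2 fold changes of knockout against wild type lay between -0.28 for Slc25a34 and 0.95 for Slc25a48. For 4 carriers that were abundant in brown fat, the difference within iBAT was 0.05 ± 0.33 for Slc25a20, -0.02 ± 0.36 for Slc25a42, 0.04 ± 0.23 for Slc25a51 and 0.16 ± 0.48 for Slc25a1. With 3 mice a group, standard errors of this size leave room for changes that would have gone unnoticed.

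**Figure D5:**
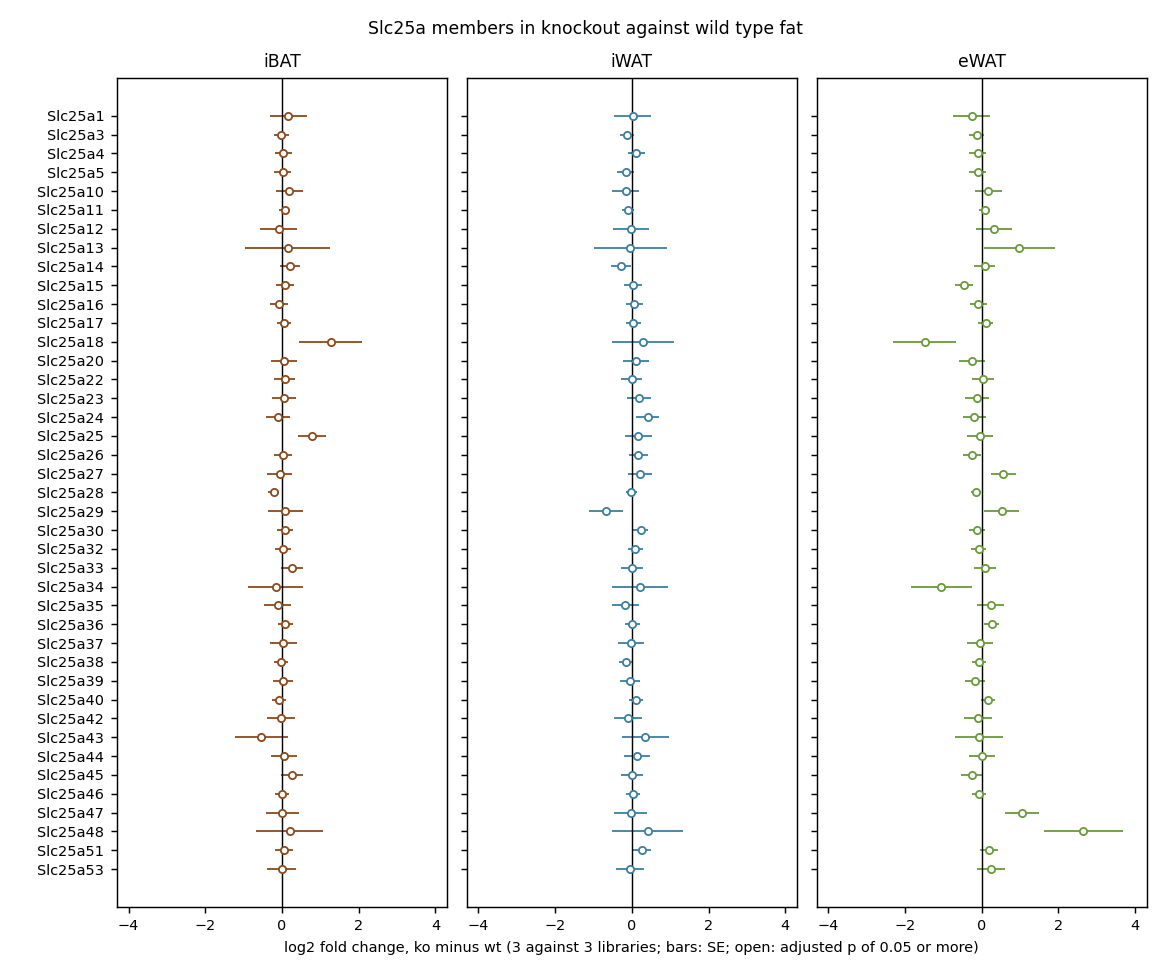
Log2 fold change of knockout against wild type for tested members in iBAT, iWAT and eWAT, 3 libraries against 3, with standard errors as bars and open circles for an adjusted p of 0.05 or more. All circles are open, most lie near 0, and the farthest to the right is Slc25a48 in eWAT at 2.65.

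The members with the smallest p within each tissue are given by library. Slc25a25 in iBAT had 8.36, 6.09 and 6.08 CPM in wild type and 11.3, 16.2 and 7.85 CPM in knockout, overlapping groups with a difference of 0.78 ± 0.36 (unadjusted p = 0.048 in edgeR's fit across all genes), which was 0.48 without ko replicate 2. Slc25a29 in iWAT had 7.40, 8.19 and 5.80 CPM in wild type and 3.21, 6.20 and 4.07 CPM in knockout (-0.67 ± 0.45), which overlap. Slc25a48 in eWAT had 0.967, 0.776 and 0.395 CPM in wild type and 0.558, 1.02 and 12.3 CPM in knockout. Its difference of 2.65 ± 1.03 rested on the library of ko replicate 3, which carried the epididymis genes, being 0.17 ± 0.87 without that mouse and 0.20 ± 0.55 without the 4 libraries. Slc25a47 in the same tissue had 3.08, 3.35 and 3.51 CPM against 3.56, 3.95 and 13.2 CPM (1.05 ± 0.44), with the same library highest. Across tissues the smallest p belonged to Slc25a28 (-0.12 ± 0.07, edgeR adjusted p = 1.0). For the genotype by tissue interaction, 0% of all genes and 0 members were called, with 0 members at an unadjusted p under 0.05 by either tool, and Slc25a18, with 2 to 38 counts per library, had the smallest p.

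Some members lie next to each other in the genome (GRCm38, GENCODE M21 coordinates). By these gene bounds Slc25a29 (chr12:108825873-108835883, minus strand) and Slc25a47 (chr12:108836046-108856815, plus strand) lie 162 bases apart and run in opposite directions. The RefSeq promoter window of Slc25a47 lies farther away, at chr12:108850879-108851178. Both genes were highest of the 6 eWAT libraries in ko replicate 3, at 31.9 and 13.2 CPM, as were several other members flagged below. Slc25a41 and Slc25a23 are 2056 bases apart on chromosome 17, Slc25a54 and Slc25a24 6461 bases apart on chromosome 3, and Slc25a43 and Slc25a5 18448 bases apart on chromosome X, each pair on 1 strand. In each of these 3 pairs 1 member was near or below detection (Slc25a41, Slc25a54 and Slc25a43, the last with at most 1.39 CPM) while the other was measured in every library. In all, 14 of the 47 members share exonic bases with another annotated gene, and reads of such stretches could be assigned to either gene.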

How the data were processed

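Reads of 2 × 50 bases were trimmed by the authors (cutadapt) and then assigned by salmon to the transcripts of GENCODE M22, alone or with RNAcentral 5 (GRCm38). The deposited values are unnormalised estimated counts, whole numbers for each gene in 18 libraries; the strand setting is not given in the sources used here. Members, substrate groups, pairs and gene lists were chosen with earlier results of these data known. Counts were scaled by TMM, filtered by filterByExpr (18728 genes) and fitted with edgeR 4.0.16 quasi-likelihood tests in R 4.3.3, with tissue and genotype as terms for tissue comparisons and genotype across tissues, and the 6 groups for genotype within tissues and interaction, with Benjamini-Hochberg adjustment over all genes. The test was checked on simulated counts. Named were members of the 6 main substrate groups, the 3 largest changes in each direction among the other members, the smallest p in each genotype comparison, members of passing pairs, and up to 3 partners a list by p in iBAT against iWAT. Alternatives were DESeq2 1.42.0, other filters and scalings, left-out mice and libraries, and a mouse block. Mice with the same number are the same animal across tissues by their identifiers; the deviations of a mouse correlated between tissues with a median r of 0.057 over 18 pairs. Coordinates come from GENCODE M21, promoters from RefSeq. Replicates are separate mice. Single values of some genes are not reported here.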

Additional observations from a re-analysis of the deposited data

Results flagged for a closer look

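Within each tissue, the highest or lowest of the 6 libraries was compared with its nearest neighbour for the 42 tested members, 126 comparisons in all, and 11 stood off by more than 0.625 of the whole range (Dixon's 95% critical value for 6). Chance flags about 1 in 20, or 6.3 here. Of the 11, 8 were in eWAT ko replicate 3, the library with the epididymis genes at 7299 CPM and the testis genes at 132 CPM.

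In that library Slc25a48 was at 12.3 CPM (next 1.02), Slc25a47 at 13.2 CPM (next 3.95), Slc25a36 at 95.8 CPM (next 58.9), Slc25a29 at 31.9 CPM (next 15.8), Slc25a13 at 14.2 CPM (next 5.85), Slc25a27 at 7.13 CPM (next 4.20) and Slc25a53 at 6.73 CPM (next 4.74). Slc25a37 was the lowest there, at 12.1 CPM (next 17.4). Slc25a18 was at 1.67 CPM in eWAT wt replicate 1 (next 0.343), on 38 counts, and this library had the second highest epididymis sum at 43.2 CPM. In iBAT ko replicate 2, Slc25a18 was at 1.88 CPM (next 0.773), on 25 counts, and Slc25a16 was the lowest at 51.4 CPM (next 70.4). The part of other tissues in these values was not tested.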

How the results depend on the processing

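The 33 members called between iBAT and iWAT and the 32 between iBAT and eWAT stayed within 1.5 times of these counts under all alternatives, at 31 to 35 and 32 to 35 when a mouse or a library was left out and 28 and 29 with wild type libraries alone. With total counts as the only scaling, a setting chosen after seeing the data, the split of higher and lower moved to 16 and 18 against iWAT and to 19 lower against eWAT. Under it Slc25a3 (-0.26 and -0.13), Slc25a16 (-0.13 and -0.23), Slc25a36 (-0.43 and -0.77), Slc25a38 (-0.33 and -0.39) and Slc25a40 (-0.40 and -0.74) reversed in both comparisons. Slc25a22 (-0.090), Slc25a28 (-0.75) and Slc25a47 (-0.43) reversed against iWAT, and Slc25a15 (-0.38) and Slc25a18 (-0.37) against eWAT.

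Members below the threshold also changed sign: Slc25a28 to -0.037 with 10 counts required in every library, Slc25a18 against eWAT to -0.12 without ko replicate 2 (-0.12 to 1.64 over all left-out mice and libraries), and, against eWAT, Slc25a27 to 0.076 and Slc25a47 to 0.10 without the 4 libraries, to 0.02 and 0.05 without ko replicate 3, to 0.082 and 0.11 without eWAT ko replicate 3 and to 0.20 and 0.18 with wild type alone. Over all left-out mice and libraries these 2 ranged from -0.24 to 0.082 and from -0.50 to 0.11.

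The 5 calls between iWAT and eWAT (3 higher, 2 lower) were 0 to 7 (0 to 6 and 0 to 2) when a mouse or library was left out, 10 (7 higher) without the 4 libraries, 1 (1 and 0) with both depots alone, and 0 (0 and 0) with wild type alone. With no filter on counts, 1 was lower. No genotype comparison called a member under any alternative, and the blocks (the mouse for tissues and interaction, the replicate number for genotype, whose mice have neighbouring identifiers but no stated litter or day in common) changed the tissue counts to 34, 32 and 4 and left genotype at 0.

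Of the ratios, 7, 8 and 2 passed. A replicate block (the mouse, by sign flips) left 0 in each comparison, with a smallest p of 0.031 and a smallest adjusted p of 0.066. Without the 4 libraries 4 passed between the white depots. With wild type libraries alone no ratio could pass, the smallest p of 3 against 3 being 0.1. The adenine nucleotide share of the members' CPM per kb had means of 16.3%, 17.1% and 21% for iBAT, iWAT and eWAT. These were 24.3%, 22.9% and 29.3% by the union of exons, and 20.8%, 19.7% and 24.3% by the longest transcript, a length chosen after seeing the data.

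Depth limits Slc25a13, Slc25a18 and Slc25a43, whose values rest on few counts, and 3 mice a group limit the genotype comparisons.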
